A study of Mus musculus with 36 samples.

Results

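Rab GTPases are the largest branch of the Ras superfamily of small G proteins. Each Rab cycles between a GTP-bound form on a membrane, where it recruits effectors, and a GDP-bound form that is held in the cytosol, and the member present gives a compartment its identity for budding, transport, tethering and fusion. In neurons they are best known for synaptic vesicle release, the recycling of receptors through endosomes and the delivery of cargo along axons and dendrites. The Rab genes were taken as every probe whose array symbol is Rab followed by a number and, at most, a letter and another digit. This gave 55 genes on 101 probes, out of 30854 gene symbols on 45281 probes. Of these genes, 25 had 1 probe and 30 had several, at most 4. The symbols of 53 genes are current RefSeq symbols, and Rab6 and Rab1 are listed there as synonyms.

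RNA came from the hippocampus (HIP), the nucleus accumbens (NAc) and the medial part of the prefrontal cortex (PFC) of adult male C57BL/6 mice of no stated genetic modification, which the labels call C57BL/6J and the methods give as bought at 10 weeks of age from more than 1 supplier. All mice were injected intraperitoneally once a day for 10 days, and tissue was taken 1 h after the last dose. Vehicle mice received saline and PEG-400 at 45% each with DMSO at 10%, the solvent that the drug groups received as well. Cpd-60 mice received 45 mg/kg of a benzamide inhibitor directed at HDAC1 and HDAC2, SAHA mice 25 mg/kg of a hydroxamate inhibitor of lower selectivity, and CI-994 mice 10 mg/kg of another benzamide inhibitor. Each treatment had 6 mice in 3 pools of 2, and all 3 regions were taken from the same pools, which gives 36 Illumina MouseWG-6 arrays in 12 groups of 3. The doses differ between drugs, so their values are set side by side without a test between drugs. Because each sample is a piece of tissue, fewer cells of a type and less RNA per cell cannot be told apart.

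The arrays had median raw intensities of 82.2 to 108.3 and 95th percentiles of 349.9 to 1079.7, and arrays of 1 group correlated at 0.970 to 0.994. The dimmest array was Cpd-60 replicate 1 of the NAc, with a 95th percentile of 349.9. On it 31.9% of probes were detected at a detection p of at most 0.01. SAHA replicates 2 and 3 of the HIP followed, at 437.7 and 452, and vehicle replicate 1 of the NAc, at 480.5. The median over all arrays was 665.4. Each region was run on 2 BeadChips of 6 arrays that held no other region, so every difference between regions is also one between BeadChips. The BeadChips of the NAc differed from each other far more than those of the other regions, as described below. The dissections were as labelled by their markers. The mean log2 level of 7 striatum markers under vehicle was 10.23 to 10.44 in the NAc against 7.38 to 7.56 in the PFC and 7.10 to 7.22 in the HIP, and that of 6 hippocampus markers was 8.95 to 9.25 in the HIP against at most 7.62 elsewhere. Oligodendrocyte markers (7 of 8 measured) were lowest in the PFC, at 9.67 to 9.99, against NAc values of 10.54 to 10.91 and HIP values of 11.22 to 11.41. Neuron markers (4 of 4) were highest in the PFC, at 11.06 to 11.16, with 10.41 to 10.77 for the NAc and 10.62 to 10.73 for the HIP. Astrocyte markers (7 of 7) were 9.34 to 9.47 in the PFC, and lay lower in NAc samples, at 8.93 to 9.10, and higher in those of the HIP, at 9.64 to 9.75. The part of these lists in the Rab differences between regions was not tested.

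All levels below are log2 quantile-normalized intensities, and all differences are on that log2 scale. A level is compared between groups for the same probe and never between probes. At a detection p of at most 0.05, 57 Rab probes of 39 genes were detected on every array. Probes with a detection p of at most 0.2 on all 3 arrays of at least 1 group were tested, which left 79 probes of 50 genes over all 36 arrays, and 71, 73 and 77 probes in the PFC, NAc and HIP alone. Rab17, Rab19, Rab20, Rab2b and Rab37 had no probe that passed. Where several probes of a gene were tested, the one with the highest mean signal stands for the gene unless another is named.

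Under vehicle, Rab genes differed between regions about as often as other genes, by limma with Benjamini-Hochberg adjustment over all probes at an adjusted p under 0.05. Between HIP and PFC 19 of 79 Rab probes differed (24.1%, against 20% of all probes), 11 higher and 8 lower in the HIP. Between NAc and PFC 14 of 79 differed (17.7%, against 14.9% of all probes), 5 higher and 9 lower in the NAc. Between HIP and NAc 12 of 79 differed (15.2%, against 13.1% of all probes), 9 higher and 3 lower in the HIP. The median Rab difference was -0.03, -0.04 and -0.01 in the 3 comparisons, against -0.02, -0.00 and -0.00 over all probes. Counted by the brightest probe of each gene, 14, 9 and 9 of 50 genes differed, and by any of its probes 18, 10 and 9.

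The regional differences of smallest p were in the NAc, and for Rab3d, Rab6 and Rab9b they appeared on both of its BeadChips. Among vehicle arrays the first and second NAc BeadChip stood from the PFC by -0.65 and -0.73 for Rab3d. The values were -0.83 and -0.77 for Rab6 and 0.90 and 0.66 for Rab9b. The first BeadChip held vehicle replicates 1 and 2 and the second replicate 3 alone. Over all treatments the Rab3d means of the NAc BeadChips were 7.11 and 7.01, against 7.73 and 7.59 in the PFC. For Rab6 they were 10.55 and 10.52 against 11.41 and 11.32, and for Rab9b 9.57 and 9.58 against 8.80 and 8.82. Rab3d, a Rab3 paralog best known from the secretory granules of exocrine cells, was 7.07, 7.03 and 6.97 in the 3 vehicle pools of the NAc, 7.71, 7.74 and 7.64 in the PFC and 7.65, 7.86 and 7.82 in the HIP. All NAc pools were below all pools of the other regions. The difference was -0.68 (SE 0.088, adjusted p = 1.35e-06) from the PFC, and the HIP stood 0.75 above the NAc (SE 0.088, adjusted p = 2.1e-07). Rab6, which moves vesicles from the Golgi, was 10.62, 10.44 and 10.59 in the NAc, 11.36, 11.49 and 11.22 in the PFC and 11.19, 11.24 and 10.94 in the HIP. Again no NAc pool reached a pool of another region, with a difference of -0.81 (SE 0.138, adjusted p = 8.29e-05) from the PFC and of 0.57 (SE 0.138, adjusted p = 0.00435) between HIP and NAc. Of its 4 probes 3 had this pattern. The remaining and dimmest probe was lowest in the PFC, with NAc higher by 0.21 and HIP by 0.36, so the probes of Rab6 disagree.

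Rab9b, a relative of the Rab9 that returns receptors from late endosomes to the Golgi, had the opposite pattern. It was 9.81, 9.71 and 9.52 in the NAc, 8.80, 8.83 and 8.96 in the PFC and 8.87, 8.79 and 8.89 in the HIP. The NAc exceeded the PFC by 0.82 (SE 0.128, adjusted p = 2.3e-05) and the difference between HIP and NAc was -0.83 (SE 0.128, adjusted p = 2.07e-05), while PFC and HIP overlapped. Rab34, linked to the Golgi and to the assembly of primary cilia, was also highest in the NAc, at 8.39, 8.17 and 8.20 against 7.64, 7.54 and 7.46 in the PFC and 7.92, 7.77 and 7.92 in the HIP. Its difference from the PFC was 0.71 (SE 0.152, adjusted p = 0.00126), and that between HIP and NAc, -0.38, missed the threshold (adjusted p = 0.103). On the second NAc BeadChip Rab34 was lower than on the first (-0.37, adjusted p = 0.00786). Among vehicle arrays it stood above the PFC on each of them, by 0.74 and 0.65. A dimmer Rab34 probe stood above the PFC by 0.39 on the first and by only 0.07 on the second.

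**Figure D1:**
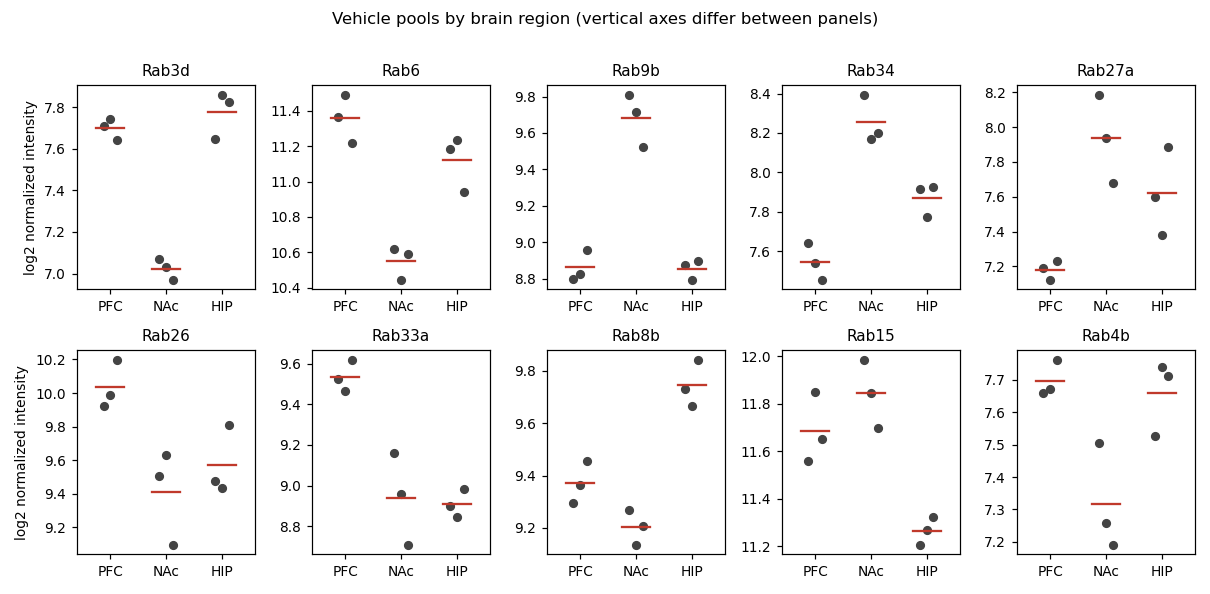
Log2 normalized intensity (vertical axis, its range set for each panel) of 10 Rab genes in the 3 vehicle pools of each region (points, 1 per pool of 2 mice), with the group mean as a bar. Rab3d and Rab6 were lowest and Rab9b and Rab34 highest in the NAc, Rab27a was lowest and Rab26 and Rab33a highest in the PFC, and Rab8b was highest and Rab15 lowest in the HIP.

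Among the Rabs of regulated secretion, Rab27a and Rab26 marked the PFC in opposite directions. Rab27a, which docks secretory granules and lysosome-related organelles, was 7.19, 7.12 and 7.23 in the PFC against 8.19, 7.94 and 7.68 in the NAc, with HIP values of 7.60, 7.38 and 7.89. The PFC pools were lowest, by 0.76 from the NAc (SE 0.129, adjusted p = 8.26e-05) and 0.44 from the HIP (SE 0.129, adjusted p = 0.0154). Rab26, which has been placed on synaptic vesicles and linked to their clustering and to autophagy, was 9.92, 9.99 and 10.20 in the PFC against 9.51, 9.63 and 9.10 in the NAc, with HIP values of 9.48, 9.44 and 9.81. It was highest in the PFC without overlap, with differences of -0.62 in the NAc (SE 0.153, adjusted p = 0.0046) and -0.46 in the HIP (SE 0.153, adjusted p = 0.032), and its second probe gave -0.63 and -0.50. Among vehicle arrays the NAc stood at -0.47 from the PFC on its first BeadChip and at -0.94 on its second, which held replicate 3 alone.

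Rab3a, the main Rab of synaptic vesicles, did not pass the test between any regions by its brighter probe, at 11.67, 11.78 and 11.71 in the PFC against 11.23, 11.43 and 11.72 in the NAc, with HIP values of 11.72, 11.70 and 11.56. Rab3b, a paralog that shares its role in release, did not pass either, with means of 7.87, 7.78 and 7.68 in PFC, NAc and HIP. Rab3c, the remaining neuronal paralog, had means of 6.61, 6.61 and 6.74 and was detected on 1, 1 and 3 of the 3 arrays. Rab27b, a partner of Rab27a in secretion, had means of 6.60, 6.60 and 6.56 and was detected on 1 of the 9 vehicle arrays, so its level is not well above background in any region. Thus of 7 tested genes of this role 2 differed between HIP and PFC, 3 between NAc and PFC, and Rab3d alone between HIP and NAc. The shares of all probes in these comparisons were 20%, 14.9% and 13.1%.

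Of the Rabs between the endoplasmic reticulum and the Golgi, 12 genes were tested. In the 3 comparisons 1, 3 and 2 differed, against 20%, 14.9% and 13.1% of all probes. Rab33a, a Golgi Rab described on vesicles of growing axons, was 9.52, 9.46 and 9.62 in the PFC against 9.16, 8.96 and 8.71 in the NAc, with HIP values of 8.90, 8.85 and 8.98. All PFC pools were above all others, with differences of -0.59 in the NAc (SE 0.125, adjusted p = 0.00103) and -0.63 in the HIP (SE 0.125, adjusted p = 0.000671). Among vehicle arrays the NAc stood from the PFC at -0.48 on its first and -0.83 on its second BeadChip. Rab36, which shares a lysosome-positioning effector with Rab34, was -0.47 in the HIP against the NAc (adjusted p = 0.00363). The brightest of the group did not pass: Rab2a, which acts early in the secretory pathway, had means of 11.74, 11.81 and 11.78 in PFC, NAc and HIP, and Rab6b, the neuronal form of Rab6, had 12.09, 11.62 and 11.54 (HIP minus PFC -0.55, adjusted p = 0.052). Rab1 and Rab1b, which carry cargo from the endoplasmic reticulum to the Golgi, did not pass between regions either, with Rab1 means of 7.72, 7.55 and 7.54 and Rab1b pools between 8.87 and 9.09.

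Of 8 tested recycling Rabs 4 differed between HIP and PFC (against 20% of all probes), namely Rab15, Rab4a, Rab11b and Rab11a (adjusted p = 0.0498), and Rab11a also differed between the NAc BeadChips, as described below. Rab15, a brain-enriched Rab that slows early endocytic traffic, was 11.21, 11.27 and 11.32 in the HIP, 11.56, 11.85 and 11.65 in the PFC and 11.99, 11.85 and 11.70 in the NAc. The HIP pools were lowest, at -0.42 from the PFC (SE 0.133, adjusted p = 0.024) and -0.58 from the NAc (SE 0.133, adjusted p = 0.00265). Rab4a, which returns receptors to the surface by the fast route, was 8.44, 8.45 and 8.43 in the HIP and 8.97, 8.95 and 8.65 in the PFC (-0.41, adjusted p = 0.0374), and Rab11b, of the slow recycling endosome, was lower in the HIP (-0.33, adjusted p = 0.0192). Rab4b, the paralog of Rab4a, was lowest in the NAc, at 7.50, 7.26 and 7.19 against 7.66, 7.67 and 7.76 in the PFC (-0.38, adjusted p = 0.00266) and 7.53, 7.74 and 7.71 in the HIP.

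Of the Rabs of post-Golgi traffic and the cilium (6 genes tested), Rab8b, which delivers vesicles to the plasma membrane, was highest in the HIP, at 9.73, 9.67 and 9.84 against 9.30, 9.36 and 9.45 in the PFC and 9.27, 9.14 and 9.21 in the NAc. The HIP exceeded the NAc by 0.54 (SE 0.101, adjusted p = 0.000281) and the PFC by 0.37 (SE 0.101, adjusted p = 0.00921). Rab28, a cilium Rab, did not pass, and Rab23, an antagonist of Hedgehog signaling, was lower in the HIP than in the PFC (-0.31, adjusted p = 0.00867). Among early endosome Rabs (6 genes tested), Rab31, which acts between the trans-Golgi network and endosomes, was 9.51, 9.72 and 9.65 in the HIP and 9.31, 9.34 and 9.20 in the NAc, a difference of 0.34 (SE 0.105, adjusted p = 0.0278). Rab5a, the organizer of early endosome fusion, was lower in the HIP than in the PFC (-0.34, adjusted p = 0.0315), while its second probe gave 0.02. The first of these Rab5a probes also differed between the NAc BeadChips (-0.24, adjusted p = 0.0363), so a regional and a BeadChip difference cannot be told apart for it. Of the late endosome and lysosome Rabs (7 tested), Rab32, a Rab of lysosome-related organelles and mitochondria, was higher in the HIP than in the PFC by 0.23 (adjusted p = 0.0256), at levels of 6.67 to 7.16 close to background. Rab24, an autophagy-related Rab of this group, did not pass by its brightest probe (0.17, adjusted p = 0.159) and was higher in the HIP by another (0.40, adjusted p = 0.0102). Rab40b, a member that recruits ubiquitin ligase components, was lowest in the PFC, at 6.73, 6.76 and 6.85, with the NAc higher by 0.34 (adjusted p = 0.00965).

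Some Rab probes, Rab34 among them, differed between the 2 BeadChips of the NAc. In a fit of the 12 NAc arrays with treatment and BeadChip, 22 of 73 Rab probes of 18 genes differed between the BeadChips at an adjusted p under 0.05 (30.1%, against 22.9% of all probes), 7 higher and 15 lower on the second. In the HIP 2 of 77 did (1.19% of all probes) and in the PFC 0 of 71 (0.144% of all probes), where 32 probes of the array did. The largest step was at the dimmer Rab3a probe, which was 7.23 to 7.70 on the 6 arrays of the first NAc BeadChip and 8.61 to 9.14 on the 6 of the second. The ranges do not meet, and the step was 1.41 (SE 0.104, adjusted p = 3.07e-06). Rab5c, an early endosome Rab, was 8.61 to 9.11 on the first and 9.55 to 9.81 on the second, a step of 0.95 (SE 0.0872, adjusted p = 1.65e-05). Rab10, which moves vesicles to the plasma membrane, stepped by 0.74, Rab11a, the general recycling Rab, by 0.64, one Rab9 probe by 0.56, and Rab7, the late endosome Rab, by 0.41.

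The same probes were among the largest differences between HIP and PFC. Under vehicle the dimmer Rab3a probe was 7.33, 7.55 and 7.74 in the PFC against 7.58, 7.61 and 8.61 in the NAc, with HIP values of 8.89, 9.14 and 8.89, and the NAc pool nearest to the HIP was the one on the second BeadChip. HIP exceeded PFC by 1.44 for this probe (SE 0.415, adjusted p = 0.0143), by 1.204 for Rab5c (SE 0.292, adjusted p = 0.00402), by 0.60 for the brightest Rab7 probe (adjusted p = 0.00535), by 0.51 for Rab11a (adjusted p = 0.0498) and by 0.48 for the Rab9 probe (adjusted p = 0.0435). No BeadChip held arrays of more than 1 region, so a BeadChip difference and a regional difference cannot be told apart for these probes or for any other region comparison. For the probes named here the first NAc BeadChip stood near PFC levels and the second near HIP levels. For Rab11a the 6 BeadChip means were 6.92 and 6.92 in the PFC against 6.88 and 7.51 in the NAc, with HIP values of 7.58 and 7.39. Altogether 8, 4 and 2 of the Rab probes called between HIP and PFC, NAc and PFC, and HIP and NAc also differed between the NAc BeadChips. Probes of 1 gene could step in opposite directions: another probe of Rab7 was lower on the second BeadChip (-0.45, adjusted p = 0.0234), and the brighter Rab3a probe did not pass in the NAc and was lower on the second HIP BeadChip (-0.23, adjusted p = 0.0412). The dimmer Rab7 probes also disagreed with the brightest or with each other between regions. Over all treatments 1 had BeadChip means of 7.83 and 7.75 in the PFC against 7.46 and 7.63 in the HIP. Another had 8.47 and 8.47 against 8.03 and 8.33, while the dimmest had 6.59 and 6.57 against 6.66 and 6.69. Rab27a was higher on the second HIP BeadChip by 0.33 (adjusted p = 0.014).

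**Figure D2:**
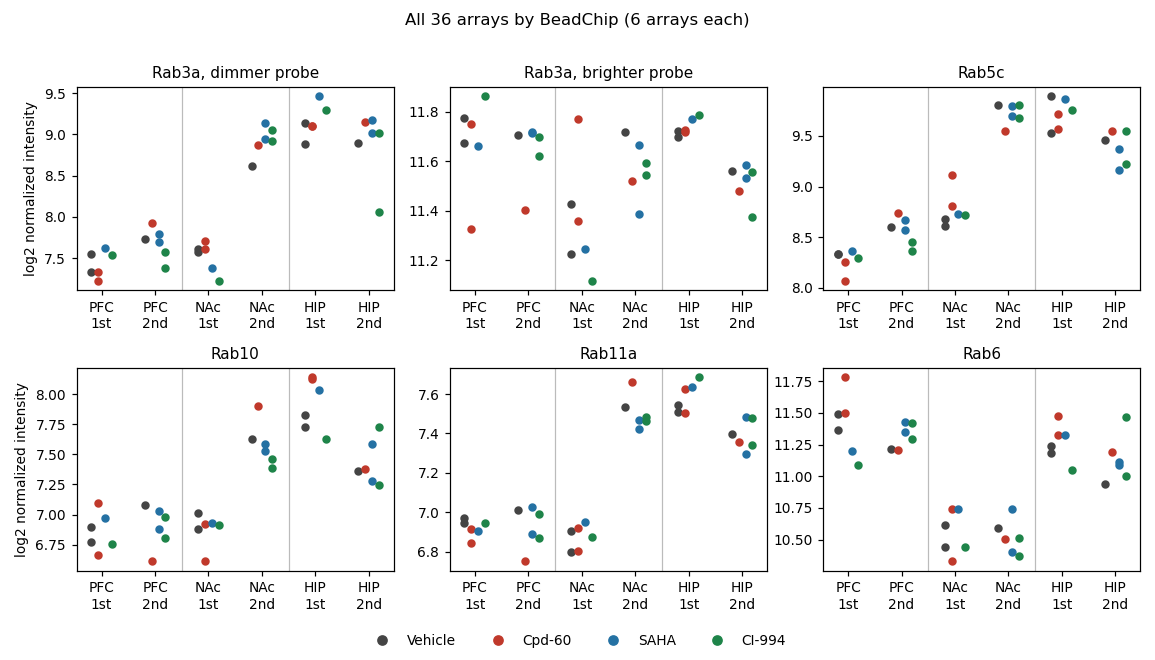
Log2 normalized intensity (vertical axis) of 6 Rab probes on all 36 arrays, split along the horizontal axis by region and by the first or second BeadChip of the region (6 arrays each), with colors for treatment. The dimmer Rab3a probe, Rab5c, Rab10 and Rab11a stood near PFC levels on the first NAc BeadChip and near HIP levels on the second, whereas Rab6 was low on both.

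Proteins that act on Rabs were read from lists of their own. Of 39 regulators on the array (GDP dissociation inhibitors, prenylation enzymes, exchange factors and GTPase-activating proteins) 37 were tested, and 9 differed between HIP and PFC (24.3%, against 20% of all probes), 9 between NAc and PFC (24.3%, against 14.9%) and 6 between HIP and NAc (16.2%, against 13.1%). Examples are Rab3ip, an exchange factor for Rab8, higher in the HIP than in the PFC by 0.52 (adjusted p = 0.00102), and Rab3gap2, the noncatalytic subunit of the Rab3 GTPase-activating complex, lower (-0.46, adjusted p = 0.0013). Of 24 effectors 23 were tested, and 8, 6 and 4 differed, which is 34.8%, 26.1% and 17.4% of them, against the same shares of all probes. Rph3a, the Rab3 and Rab27 effector rabphilin, was the most different in the NAc, at -1.48 from the PFC (SE 0.177, adjusted p = 3.33e-07), and Rims1, the active zone effector of Rab3, was -0.53 (adjusted p = 0.000419). Rab11fip4, which binds Rab11, was -1.002 in the HIP against the PFC (adjusted p = 2.55e-05), and Lrrk2, a kinase that phosphorylates several Rabs, was higher in the NAc than in the PFC by 0.64 (adjusted p = 0.00227).

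No Rab probe differed between a drug and vehicle at an adjusted p under 0.05 in any of the 9 comparisons by limma, and no other probe on the array did either (0% of all probes in each). The smallest adjusted p of a Rab probe was 0.502, in the HIP under SAHA. Counts of probes past an unadjusted p of 0.05 and 1.2-fold are therefore given as a description. In the PFC 0 of 71 Rab probes met this under Cpd-60 (1.11% of all probes), SAHA (0.217% of all probes) or CI-994 (0.654% of all probes), although 3, 3 and 1 had an unadjusted p under 0.05. In the NAc 2 of 73 did under Cpd-60 (1.78% of all probes), 0 under SAHA (0.546%) and 0 under CI-994 (0.383%), with 3, 2 and 0 at an unadjusted p under 0.05. In the HIP 3 of 77 did under Cpd-60 (1.53% of all probes), 6 under SAHA (3.17%) and 3 under CI-994 (0.67%), with 4, 8 and 8 at an unadjusted p under 0.05. The median Rab difference lay between -0.02 and 0.05 in all 9 comparisons. The dimmer Rab3a probe, which differed between the NAc BeadChips, stood in the NAc 0.56 above vehicle under SAHA and 0.47 above it under CI-994, with an SE of 0.596 in both cases. SAHA and CI-994 had 2 of 3 NAc pools on the second BeadChip and vehicle had 1.

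**Figure D3:**
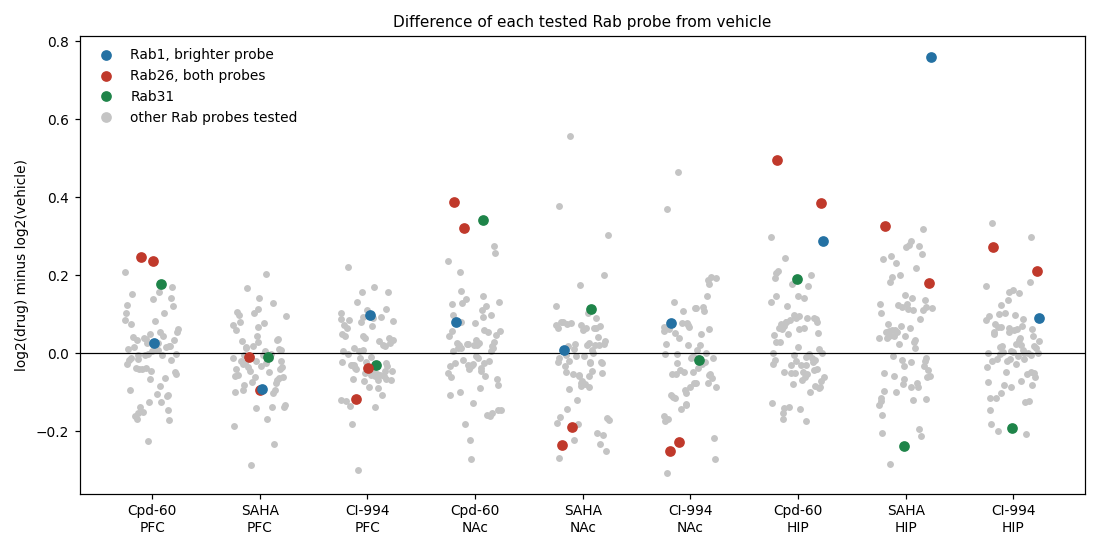
Difference between drug and vehicle on the log2 scale (vertical axis) for every tested Rab probe (points) in the 9 comparisons of drug and region, with the brighter Rab1 probe, both Rab26 probes and Rab31 colored. The brighter Rab1 probe under SAHA in the HIP, at 0.76, was the largest difference in either direction over the 9 comparisons.

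Rab1 under SAHA in the HIP had the largest difference of any Rab probe. This comparison was chosen with its earlier value known, so its rank and p-values, also those between regions, are given as a description. The brighter Rab1 probe was 7.39, 7.61 and 7.63 in the vehicle pools of the HIP and 7.96, 8.44 and 8.51 in the SAHA pools, so every SAHA pool was above every vehicle pool. The difference was 0.76 (SE 0.136, 1.69-fold, unadjusted p = 0.000116, adjusted p = 0.502 by limma), first in order among 77 Rab probes, of which the next stood at 0.33. In the other comparisons this probe differed less. It was 7.83, 7.69 and 7.98 in the HIP under Cpd-60 (0.29, adjusted p = 0.962) and 7.61, 7.51 and 7.78 under CI-994 (0.09), and in the PFC and NAc its differences were between -0.09 and 0.10. In the NAc these means join opposite values within the 2 BeadChips, -0.28 and 0.26 under SAHA and -0.45 and 0.45 under CI-994. The SAHA difference in the HIP exceeded the mean of that in the PFC and NAc by 0.80 (SE 0.223, unadjusted p = 0.00124, adjusted p = 0.656), so the contrast between regions did not pass the adjusted test.

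Several values bear on how the Rab1 difference is read. The second and dimmer Rab1 probe was 6.76, 6.67 and 6.77 under vehicle and 6.80, 6.62 and 6.91 under SAHA, a difference of 0.045 (SE 0.0759). SAHA replicate 1, the SAHA array of the HIP that was not among the dimmest by 95th percentile (665.2), was also the lowest for the brighter probe. On it 34.3% of probes were detected at a detection p of at most 0.01. Replicates 2 and 3 had 32.1% and 32.3%, and HIP arrays of the other treatments at least 37.3%, so all 3 SAHA arrays were low in detection. Without the dim SAHA replicates 2 and 3 the difference was 0.42, and without SAHA replicate 1 it was 0.93. Within the first HIP BeadChip it was 0.46 and within the second, which held both of these, 0.84. The name is also unsettled: RefSeq lists Rab1 as a synonym of Rab1a and of Rnase4, the array has 2 probes of its own for Rnase4 and 0 for Rab1a, and which transcript each Rab1 probe reads was not tested. Rab1b, the close paralog, was 8.94, 8.95 and 8.87 under vehicle and 9.04, 8.71 and 8.82 under SAHA by its brighter probe, a difference of -0.06 (SE 0.113). Its dimmer probe was 7.07, 6.96 and 6.71 under vehicle and 6.65, 6.62 and 6.63 under SAHA, which is the lowest of the 77 differences at -0.28 (unadjusted p = 0.00482, adjusted p = 0.502). In the other comparisons the brighter Rab1b probe differed by -0.17 to 0.11.

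**Figure D4:**
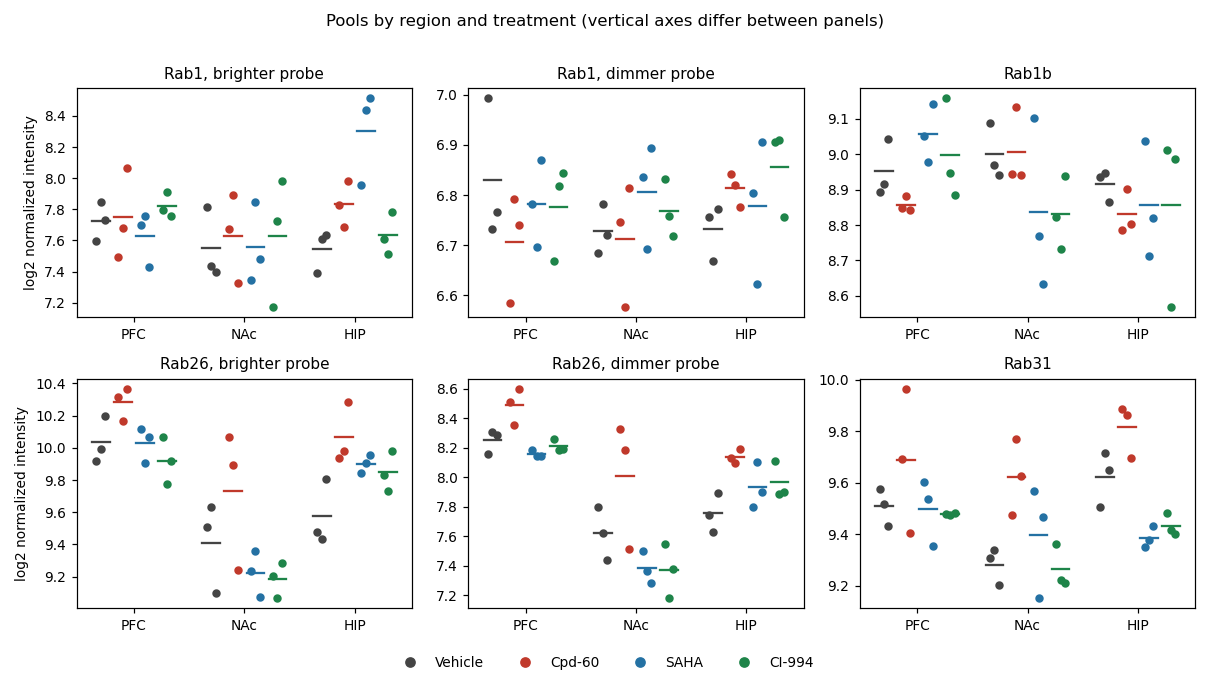
Log2 normalized intensity (vertical axis, its range set for each panel) of both Rab1 probes, the brighter Rab1b probe, both Rab26 probes and Rab31 in the 3 pools (points) of each treatment (colors) and region, with group means as bars. The brighter Rab1 probe stood at 7.96 to 8.51 under SAHA in the HIP against at most 7.63 under vehicle, while the dimmer Rab1 probe and Rab1b overlapped.

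The other Rab probes past an unadjusted p of 0.05 and 1.2-fold under SAHA in the HIP were Rab26, Rab8a, Rab2a, a dimmer Rab7 probe and the dimmer Rab1b probe. The second probes were named after their values were seen. Rab26 was 9.84, 9.91 and 9.96 against 9.48, 9.44 and 9.81 under vehicle, a difference of 0.33 (SE 0.113, adjusted p = 0.502). Rab8a, which carries vesicles to the plasma membrane and cilium, was 9.27, 9.22 and 9.45 against 9.01, 8.91 and 9.06 (0.32, SE 0.133, adjusted p = 0.521). Rab2a differed by 0.29 and the Rab7 probe by 0.28. Rab31 was lower without overlap, at 9.35, 9.38 and 9.43 against 9.51, 9.72 and 9.65 (-0.24, adjusted p = 0.502), which is under 1.2-fold. Oligodendrocyte markers moved in the same arrays: 3 of 7 were lower past an unadjusted p of 0.05 and 1.2-fold (3.17% of all probes), and their mean level was 11.03 to 11.17 under SAHA against 11.22 to 11.41 under vehicle. The mean level of 3 blood markers was 9.79 to 10.21 under SAHA against 10.23 to 10.47 under vehicle. Astrocyte markers stood at 9.57 to 9.61 under SAHA and 9.64 to 9.75 under vehicle, and 8 endothelial markers at 7.468 to 7.519 and 7.420 to 7.467, so the groups of neither list overlap. The part of these lists in the Rab values was not tested.

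These SAHA values changed with the normalization. With array medians alone made equal, in place of whole distributions, the median of all probes in this comparison was -0.19, against -0.01 after quantile normalization. Then 71 of 77 Rab probes were negative, against 30, and 13 Rab probes were lower at an adjusted p under 0.05 among 3241 probes of the array (8 higher, 3233 lower). Rab1 was still positive there, at 0.30 or 0.49 above the median of all probes. Rab26 turned to -0.26 and Rab8a to -0.24, while Rab31 stood at -0.81. With limma's neqc Rab1 was 1.11 and Rab26 0.36.

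**Figure D5:**
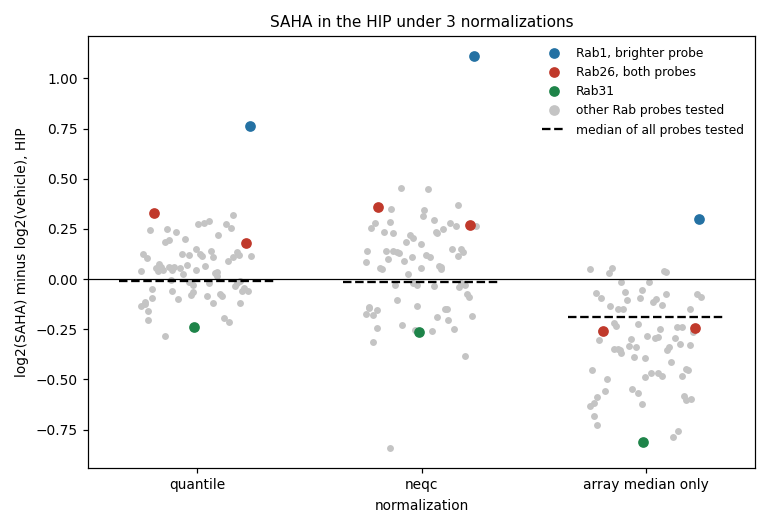
Difference between SAHA and vehicle in the HIP on the log2 scale (vertical axis) for all 77 tested Rab probes (points) under 3 normalizations (horizontal axis), with the median of all probes as a dashed line. Rab1 was the highest Rab probe under each, at 0.76, 1.11 and 0.30, whereas Rab26 was positive under the first and second and -0.26 for its brighter probe with array medians only.

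Under Cpd-60, Rab26 had the largest difference of any Rab gene. In the HIP it was 9.94, 9.98 and 10.29 against 9.48, 9.44 and 9.81 under vehicle, with no overlap, a difference of 0.50 (SE 0.113, 1.41-fold, unadjusted p = 0.000883, adjusted p = 0.761). Its second probe was 8.13, 8.10 and 8.19 against 7.74, 7.63 and 7.89 (0.39, SE 0.094, adjusted p = 0.814), also with no overlap. The value was 0.50 and 0.48 within the 2 HIP BeadChips, and 0.39 with array medians only. In the PFC it was 10.32, 10.17 and 10.37 against 9.92, 9.99 and 10.20 (0.25, adjusted p = 0.923), with 0.24 by the second probe. In the NAc the pools spread from 9.24 to 10.07 under Cpd-60 and from 9.10 to 9.63 under vehicle, with differences of 0.32 and 0.39 for the 2 probes, and within the BeadChips 0.41 and 0.14 for the brighter. Side by side in the HIP, Rab26 differed from vehicle by 0.50 under 45 mg/kg Cpd-60, 0.33 under 25 mg/kg SAHA and 0.27 under 10 mg/kg CI-994. In the NAc the brighter probe gave -0.19 under SAHA and -0.23 under CI-994. These 2 values were -0.34 and -0.37 within the first BeadChip, 0.12 and 0.08 within the second, and 0.03 and 0.01 with array medians only. These comparisons share their vehicle arrays.

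Rab31 was higher under Cpd-60 in the NAc, at 9.47, 9.77 and 9.63 against 9.31, 9.34 and 9.20 under vehicle. All treated pools were above all vehicle pools, with a difference of 0.34 (SE 0.110, adjusted p = 0.993) that was 0.30 and 0.43 within the 2 BeadChips. Leaving out each replicate gave 0.27 to 0.42, the highest without Cpd-60 replicate 1, the dimmest array. With array medians alone the difference was 0.32 (SE 0.366). Rab31 was 9.89, 9.87 and 9.70 in the HIP under Cpd-60 (0.19, adjusted p = 0.905), where pools overlapped, and -0.24 and -0.19 under SAHA and CI-994 in that region. Astrocyte markers under Cpd-60 had a mean level of 9.05 to 9.32 in the NAc against 8.93 to 9.10 under vehicle, and 9.80 to 9.90 in the HIP against 9.64 to 9.75. In the PFC they were 9.468 to 9.592 against 9.343 to 9.465, and the groups overlap in the NAc alone. Of 6 tested in the NAc 2 passed an unadjusted p of 0.05 and 1.2-fold (1.78% of all probes), and their part in the Rab31 values was not tested. Rab9b, which was highest in the NAc among regions, was 9.44, 9.31 and 9.48 there under Cpd-60 against 9.81, 9.71 and 9.52 (-0.27, SE 0.0834, adjusted p = 0.942), and the difference was -0.39 within the first BeadChip and -0.04 within the second. Rab4a under Cpd-60 in the HIP was 8.92, 8.90 and 8.40 against 8.44, 8.45 and 8.43 (0.30, SE 0.129, adjusted p = 0.939). Its lowest pool, 8.40, lay below every vehicle pool, and the difference was 0.46 on the first BeadChip and -0.03 on the second.

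Under CI-994 the 3 Rab probes past this description were all in the HIP. Rab8a was 9.37, 9.08 and 9.44 against 9.01, 8.91 and 9.06 under vehicle (0.30, SE 0.133, unadjusted p = 0.0439, adjusted p = 0.99981), and its second probe was 0.16. Rab26 was 9.83, 9.73 and 9.98 (0.27, SE 0.113), overlapping with vehicle, and was 0.37 within the first and 0.05 within the second BeadChip. The last, a dimmer probe of Rab5b, an early endosome Rab, was 7.29, 7.74 and 7.00 against 7.03, 7.08 and 6.92, and its lowest CI-994 pool lay within the vehicle range. In the comparisons of SAHA and CI-994 with no Rab probe past both limits of this description, the representative probes of smallest p were Rab11b under SAHA in the PFC (-0.23, adjusted p = 0.99986) and in the NAc (-0.20), Rab13, a Rab of cell junction traffic, under CI-994 in the PFC (0.11), and Rab8b under CI-994 in the NAc (0.18).

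The difference of each drug's value between the HIP and the other regions was tested for 79 Rab probes, and 0 passed an adjusted p under 0.05 under any drug by limma, as for all probes. At an unadjusted p under 0.05 there were 1 for Cpd-60 (2.29% of all probes), 11 for SAHA (7.36% of all probes) and 3 for CI-994 (2.3% of all probes), which is 1.27%, 13.9% and 3.80% of the Rab probes. Under SAHA 9 of the 11 were positive, among them Rab1 (0.80), Rab6b (0.54), Rab26 (0.43), Rab8a (0.33) and Rab2a (0.32), and Rab31 (-0.29) and Rab3c (-0.16) were negative. The SAHA arrays of the HIP include replicates 2 and 3, which were among the dimmest, and their part in this count was not tested.

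Among the 37 tested regulators, 2 passed an unadjusted p of 0.05 and 1.2-fold under Cpd-60 in the PFC (against 1.11% of all probes), namely Rin2, a Rab5 exchange factor, at 0.35, and Rabif, a chaperone of exocytic Rabs, at -0.35. Rin2 was 0.34 in the HIP under Cpd-60 as well, where Trappc4, a subunit of the TRAPP exchange complex for Rab1, was -0.29, which makes 2 of 37 against 1.53% of all probes. Rin1, a neuronal Rab5 exchange factor, was -0.37 under Cpd-60 and -0.39 under CI-994 in the NAc, 1 of 37 in each, against 1.78% and 0.383% of all probes. Under SAHA in the HIP Rab3gap2 was 0.29 and Trappc10, another TRAPP subunit, was 0.26 (2 of 37, against 3.17% of all probes), and under the remaining comparisons 0 of 37 passed. Of the effectors, 20 to 22 per region were tested, and 0 passed in any of the 9 comparisons of a drug with vehicle.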

How the data were processed

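RNA of 3 brain regions under 4 treatments was hybridized to 36 Illumina MouseWG-6 arrays, each from a pool of 2 mice, with 3 pools per group. Per the file headers, the authors deposited for each probe the raw signal intensity, without background subtraction or normalization, and a detection p-value. The submitters' processing notes name GeneSpring 11.5.1. The methods give quantile normalization, a median baseline, presence in 3 of 3 replicates and an analysis of variance, and describe 27 arrays, whereas 36 are analysed here. Groups were taken from sample titles, and for 1 Cpd-60 pool the title and another label name different mice.

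Here, intensities of all 36 arrays were quantile normalized and put on the log2 scale, and limma 3.58.1 in R 4.3.3 was fitted with Benjamini-Hochberg adjustment over all probes. Probes with a detection p of at most 0.2 on 3 of 3 arrays of at least 1 group were kept. Drugs were compared with vehicle within each region, regions were compared under vehicle in a fit of all arrays, with the pool as a random effect, and that fit also gave the difference of drug effects between regions. The pools were of different mice, but p-values measure only the spread between pools, and array number limits the precision: an exact permutation test of 3 against 3 cannot go below 0.1. Probes of near-identical paralogs may cross-hybridize, and probe sequences were not used here.

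The Rab genes, role groups, regulator, effector and marker lists were chosen with earlier results of these data known. Named genes were Rab1 and Rab1b in every comparison, the Rab3 and Rab27 paralogs by region, the 4 largest differences each way between regions past the adjusted threshold, the 3 largest each way under a drug past an unadjusted p of 0.05 and 1.2-fold or the gene of smallest p, and the 2 brightest genes of each role group. The fits were tested on simulated data. Alternatives were limma's neqc, array medians alone, other detection filters, 27 arrays, BeadChip or replicate as a block, another Rab1 probe and leaving out each replicate.

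Same-numbered samples were not taken as paired across treatments, since the sources used here give them no shared animals, litter or day. All 3 regions of a pool came from the same mice, and deviations from group means correlated at a median of -0.02 over 36 such pairs of regions.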

Additional observations from a re-analysis of the deposited data

How the results depend on the processing

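No Rab probe passed an adjusted p under 0.05 between a drug and vehicle in any alternative except with array medians alone. There 13 of 77 did under SAHA in the HIP, all lower, beside 3241 of 23275 probes of the array. The Rab1 value under SAHA in the HIP, 0.76, was 1.11 with neqc, 0.30 with array medians alone, 0.46 within the first BeadChip, 0.045 by the other Rab1 probe and 0.42 without both dim SAHA arrays, an alternative chosen after seeing the data. Leaving out each replicate gave 0.66 to 0.93, with the highest value without SAHA replicate 1. With array medians alone Rab26 and Rab8a under SAHA in the HIP reversed, to -0.26 and -0.24.

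The counts between HIP and PFC, NAc and PFC, and HIP and NAc (19, 14 and 12) were 6, 4 and 4 with array medians alone and 41, 40 and 32 averaged over the 4 treatments. Leaving out each replicate gave 3 to 23, 7 to 14 and 7 to 12. Without vehicle replicate 1 the first and last were 6 and 7, without replicate 2 they were 3 and 7, and without replicate 3 the first and second were 11 and 7. With NAc arrays of the first BeadChip only, HIP and NAc differed at 24 probes, and with those of the second only, NAc and PFC differed at 24, both chosen after seeing the data. Counts over all probes were not taken in these alternatives, and the cause was not tested.

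In each region all samples numbered 1 lay on its first BeadChip and all numbered 3 on its second. Those numbered 2 lay on the first for vehicle and Cpd-60 and on the second for SAHA and CI-994. Number and BeadChip can therefore be told apart only in part. Deviations correlated at a median of 0.21 between treatments for the same number and -0.13 for different ones. With the replicate block, 0 Rab probes passed in any drug comparison, Rab1 under SAHA in the HIP stayed at 0.76, and 8 probes rather than 6 passed the unadjusted description there. With the replicate block within vehicle arrays the region counts were 21, 15 and 12, and with no replicate block they were 20, 14 and 12.

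The unadjusted counts moved most under SAHA in the HIP, from 6 to 2 with the BeadChip as a block and to 31 with array medians alone. Leaving out each replicate gave 2 (without vehicle replicate 1) to 8 there, 1 to 8 for Cpd-60 in the NAc and 2 to 6 for it in the HIP (both highest without Cpd-60 replicate 3) and 0 (without vehicle replicate 1) to 3 for CI-994 in the HIP. For the SAHA difference between HIP and the other regions, 11 became 2 without vehicle replicate 1 and 18 without SAHA replicate 1. Of the 31 Rab probes with array medians alone, 30 were lower and 1 higher, beside 7820 and 1 of 23275 probes of the array. For the fits with a block or without a replicate, counts over all probes were not taken.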

Other observations

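Rab-like genes that the naming rule leaves out (Rab7l1, Rabl2a, Rabl3, Rabl4 and Rabl5) were measured in the same way by 8 tested probes. Rabl2a, which acts in ciliary transport, was lower in the HIP than in the PFC under vehicle (-0.46, SE 0.156, adjusted p = 0.0355 by limma), while its other probe gave -0.01. Rabl3 was lower in the HIP than in the NAc by 1 of its 2 probes (-0.26, SE 0.0795, adjusted p = 0.028). No probe of these genes passed an unadjusted p of 0.05 with 1.2-fold under any drug. Rab7l1, the former name of the Rab29 that works with Lrrk2, came nearest at 0.25 under CI-994 in the PFC (SE 0.0858, unadjusted p = 0.0119, adjusted p = 0.99973 by limma).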
